A study of Mus musculus with 8 samples.

Results

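The genes described here are those of cholesterol and fatty acid synthesis, with the sterol sensors that govern them and genes of cholesterol handling and export. A list of 46 gene symbols defined them, and a gene was included when its symbol stood in the first column of the expression table. In all, 43 of the 46 had a row, among 12589 rows. Msmo1, Abcg1 and Ch25h had none under these symbols, and they are outside the counts given for the members. The table holds Msmo1 under its older symbol Sc4mol, a row that was looked up after the values were seen and is given with its branch. The cells were mSSC-YFP, a line of mouse spleen stromal cells, grown in DMEM with fetal bovine serum. Cultures were kept for 48 h with BMS493, an inhibitor of signaling through the retinoic acid receptors, or with its vehicle DMSO, and 4 RNA-seq samples were labelled for each. All 8 samples came from 1 line, and the labels do not say whether they were separate cultures. The labels give the same serum-containing medium for both groups, and serum is a source of lipoprotein cholesterol.

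The only expression values used here were 1 mean per gene, on a log2 scale, taken by the authors. Its column is named as a mean with no sample or group, and it was read as covering all 8 libraries, both treatments together. For this reason the values describe the level of each gene in this cell line, and no difference between BMS493 and DMSO can be read from them. Values of single libraries, their depth and their spread were not analysed here, so no error, interval or test stands beside a level, and a small gap between genes has no known significance. The level of a long transcript also includes its length, since longer transcripts give more reads. Genes were therefore compared by the level per kilobase, which is the level minus the log2 of the length in kilobases of the longest annotated transcript. The median level over all rows was 4.99, and the median level per kilobase was 3.30 over the 11771 rows with a length. A percentile gives the place of a gene per kilobase among those rows. Where it is given for the level itself, as a percentile of all rows, it is the place among all 12589.

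Of the fibroblastic markers, 9 of 9 had a row, with levels from 5.24 to 13.3, led by Col1a1, a chain of type I collagen. Of 6 leukocyte, 5 adipocyte and 4 hepatocyte markers, 0 had a row under their present symbols or a RefSeq synonym, which does not show that they were at 0, since the filter on low genes is unknown. Of 5 endothelial markers 2 had one, Pecam1 at a level of 0.47 and Kdr at 2.83. Among 4 epithelial markers, Krt8 and Krt18 had levels of 1.55 and 0.31, whereas Cdh1, the gene of E-cadherin, reached 8.03 and Epcam had no row. The markers of the labelled cell type were thus present, and so was an epithelial adhesion gene at a high level.

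As background, animal cells build cholesterol from acetyl-CoA through mevalonate, isoprenoids, squalene and a long series of sterol intermediates. Fatty acids start from the same acetyl-CoA, which cytosolic enzymes extend, desaturate and activate. The transcription factors SREBP-1 and SREBP-2 govern both routes: they are made as membrane proteins of the endoplasmic reticulum, escorted by SCAP to the Golgi when sterols are low, cut there, and sent to the nucleus. INSIG proteins hold SCAP back when sterols are abundant. Surplus cholesterol is esterified for storage or exported, and the export is largely under control of the liver X receptors.

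SREBP binds sterol response elements (SRE) next to sites of NF-Y, which reads the CCAAT box, and of SP1, which reads the GC box, and it can also bind the E-box. The promoters of 6 genes are shown because they belong to the factor itself, its feedback inhibitor, highly placed enzymes of both routes and the lowest member; they were chosen after the values were seen. Each is the stretch before the RefSeq start, within 250 bases of it, that no GENCODE exon covers, read 5′ to 3′ on the strand of the gene and taken from RefSeq on GRCm38.p6. Capitals mark, on either strand, the SRE-like motif TCACNCCAC or its shorter form TCACNCCA, the E-box CACGTG, the CCAAT box CCAAT and the GC box GGGCGG.
Hmgcs1, chr13:119690101-119690350, plus strand: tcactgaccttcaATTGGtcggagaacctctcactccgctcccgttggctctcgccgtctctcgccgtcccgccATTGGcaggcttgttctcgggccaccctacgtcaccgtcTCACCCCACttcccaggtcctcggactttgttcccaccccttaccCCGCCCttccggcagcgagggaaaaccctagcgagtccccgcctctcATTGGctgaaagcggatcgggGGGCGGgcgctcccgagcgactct
Insig1, chr5:28071162-28071362, plus strand: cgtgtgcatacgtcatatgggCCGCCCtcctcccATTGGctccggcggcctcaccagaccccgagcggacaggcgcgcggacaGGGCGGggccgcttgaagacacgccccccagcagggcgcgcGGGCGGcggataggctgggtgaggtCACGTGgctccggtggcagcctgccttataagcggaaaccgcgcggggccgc
Srebf2, chr15:82147019-82147180, plus strand: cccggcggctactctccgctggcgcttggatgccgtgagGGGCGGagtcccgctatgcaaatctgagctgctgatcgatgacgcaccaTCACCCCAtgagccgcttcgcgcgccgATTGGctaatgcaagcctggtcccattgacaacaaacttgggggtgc
Cyp51, chr5:4104747-4104947, minus strand: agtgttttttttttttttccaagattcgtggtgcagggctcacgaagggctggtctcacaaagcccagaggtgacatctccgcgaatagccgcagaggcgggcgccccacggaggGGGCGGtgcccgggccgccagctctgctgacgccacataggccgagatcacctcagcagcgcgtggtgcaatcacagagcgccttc
Fasn, chr11:120824548-120824797, minus strand: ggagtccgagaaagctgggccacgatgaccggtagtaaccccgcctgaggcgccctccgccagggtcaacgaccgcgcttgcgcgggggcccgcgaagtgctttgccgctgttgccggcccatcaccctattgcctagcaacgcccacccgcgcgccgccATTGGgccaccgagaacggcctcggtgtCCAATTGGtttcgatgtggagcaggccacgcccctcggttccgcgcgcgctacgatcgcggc
Abca1, chr4:53159896-53160145, minus strand: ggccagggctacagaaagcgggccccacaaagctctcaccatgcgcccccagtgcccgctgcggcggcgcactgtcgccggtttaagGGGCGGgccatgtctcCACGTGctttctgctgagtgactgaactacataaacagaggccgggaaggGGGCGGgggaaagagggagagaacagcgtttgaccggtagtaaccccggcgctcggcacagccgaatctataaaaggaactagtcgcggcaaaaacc

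The Hmgcs1 stretch held 1 SRE-like motif, 3 CCAAT boxes and 2 GC boxes. The Insig1 stretch held 1 E-box, 1 CCAAT box and 3 GC boxes. In Srebf2 the shorter form of the SRE-like motif occurred 1 time, between 1 GC box and 1 CCAAT box. Fasn held 3 CCAAT boxes, a pair of which overlap on opposite strands, and no GC box in these letters. The Cyp51 stretch held 1 GC box and no exact match to the other motifs, although its full windows also hold a CCAAT box. Abca1 held 1 E-box and 2 GC boxes. Only exact matches were marked, so an SRE with other bases would stay in lower case.

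Over the full promoter windows of 300 bases, from 250 before to 50 after the start, 35 of the 43 members with a row had a RefSeq entry. Those without one include Fdps, Fdft1 and Sqle of cholesterol synthesis and also Npc1 and Stard4. Of the 15 fatty acid synthesis genes, 12 had an entry. The shares leave out the genes without one. A CCAAT box stood in 28 of these 35 genes, or 80.0%, beside 43.7% of the 8845 genes of the table that had an entry and 41.1% of all 27025 genes with one. By branch it occurred in 13 of 14 cholesterol synthesis genes, 4 of 5 genes of SREBP control, 8 of 12 fatty acid synthesis genes and 3 of 4 genes of uptake, efflux and storage. A GC box stood in 30 of 35 members, or 85.7%, beside 71.0% of the genes of the table and 38.2% of all genes. The E-box occurred in 7 of 35 members, beside 1060 of the 8845 genes of the table and 2187 of all 27025. These 7 were Insig1, Scap, Dhcr7, Hsd17b7, Sc5d, Elovl5 and Abca1. The SRE-like motif itself was found only in Hmgcs1 among the 35, or 2.86%, beside 1.38% and 1.44%, and its shorter form also in Srebf2, giving 5.71% of members beside 4.39% and 4.97%. The shares are descriptions with no test, and they count exact matches only. An SRE that departs from these letters is missed, so a gene without a match may still hold one. Genes with several annotated starts have more windows in which a motif can fall, and 7 members had more than 1.

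**Figure D1:**
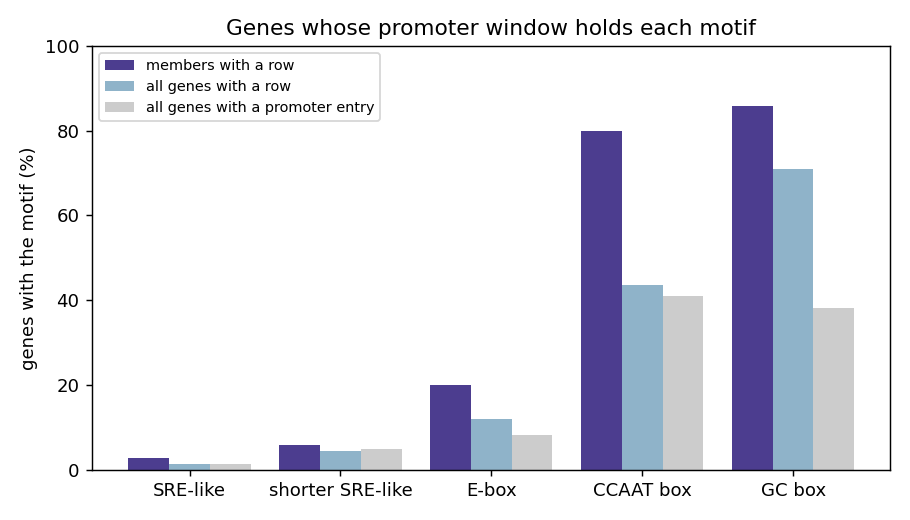
Share of genes (%, vertical axis) whose promoter window of 300 bases holds each motif, for the 35 members with an entry, the 8845 genes of the table with an entry and all 27025 genes with one. The CCAAT box stood in 80.0% of members beside 43.7% of the genes of the table, and the gap for the GC box was smaller, at 85.7% beside 71.0%.

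Over all branches, the 43 members lay high in the table. Their median level per kilobase was 4.93, which is 1.62 above that of all rows, or 3.08-fold. Above percentile 75, where 25% of all rows lie by definition, there were 25 of the 43 members, and below percentile 25 there were 4. Levels per kilobase ran from -0.51 for Abca1 to 8.28 for Scd2. The fatty acid synthesis genes had the highest median, 5.51 over 15 genes, or 4.61-fold over all rows. SREBP control followed with 5.04 over 5 genes (3.34-fold) and cholesterol synthesis with 4.85 over 17 genes (2.91-fold). Uptake, efflux and storage had a median of 3.42 over 6 genes, or 1.09-fold, which is close to the median of all rows with this length. The branch stood 1.23 above all rows without division by length, where it ranked above cholesterol synthesis at 1.03, and 1.22 above with the median transcript length, where it ranked last. The interquartile range of the level per kilobase was 2.74 over all rows with a length. It was 2.40 for fatty acid synthesis, 2.08 for uptake, efflux and storage, 1.38 for cholesterol synthesis and 0.80 for SREBP control. Each branch thus spread less than the table as a whole. The order of the branches changed with the length used. With the coding length, SREBP control stood 2.13 above all rows, fatty acid synthesis 2.05, cholesterol synthesis 1.53 and uptake, efflux and storage 0.33.

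**Figure D2:**
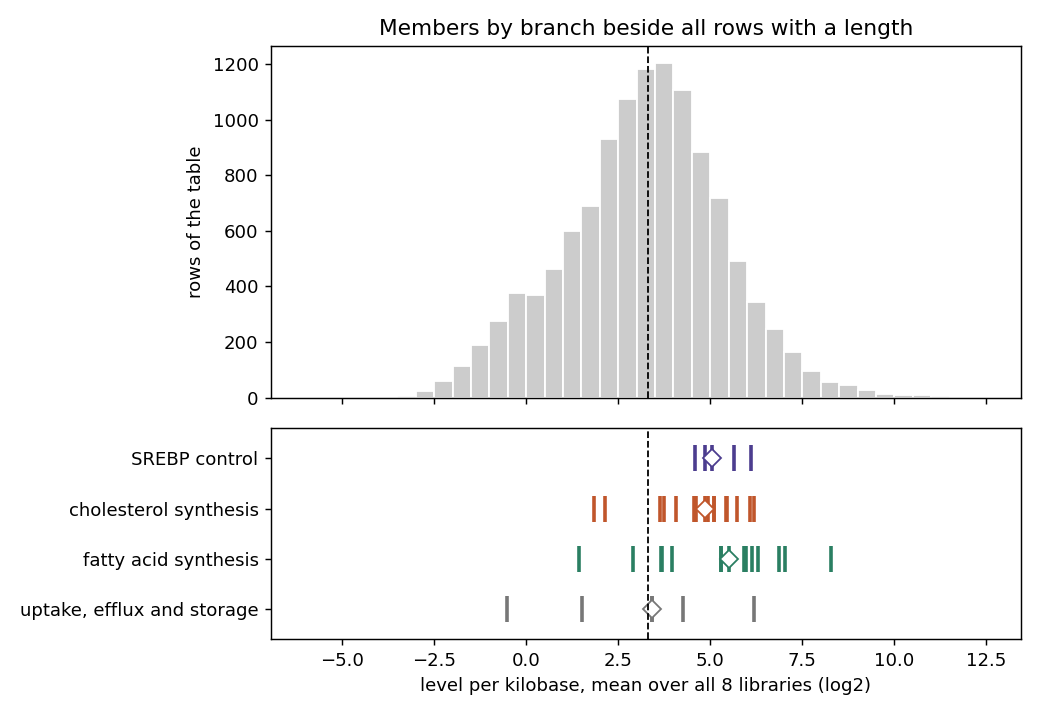
Upper panel, number of rows of the table (vertical axis) by level per kilobase (log2, horizontal axis), with the median of all rows, 3.30, as a dashed line. Lower panel, each member as a tick by branch, with a diamond for the branch median; the 5 genes of SREBP control lie between 4.58 and 6.12, all to the right of the dashed line, whereas uptake, efflux and storage spans it.

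All 5 genes of SREBP control lay above the median of all rows. Srebf2, which encodes SREBP-2, the isoform best known for cholesterol genes, spans bases 82147181 to 82205379 of chromosome 15 (GRCm38). Its level was 8.46, at percentile 96.8 of all rows, and its level per kilobase was 6.12. Srebf1, which encodes SREBP-1, the isoform best known for fatty acid genes, had a level of 7.15 and a level per kilobase of 5.04. Per kilobase Srebf2 was thus 2.11-fold above Srebf1, and 2.50-fold with the coding length, but the order turned with the median transcript length, at 0.945-fold. Of the retention factors, Insig1, itself a sterol-regulated gene, had a level per kilobase of 5.65 and Insig2 one of 4.85, a ratio of 1.74 that became 1.52 with the coding length and 0.523 with the median transcript length. Scap, the escort, had the lowest level per kilobase of the branch, 4.58. The proteases that cut SREBP in the Golgi, which are not members, differed from each other: Mbtps1 had a level per kilobase of 5.32 and Mbtps2 one of 2.64. Of the liver X receptor genes, Nr1h2 had a level per kilobase of 4.55, and Nr1h3 had no row.

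**Figure D3:**
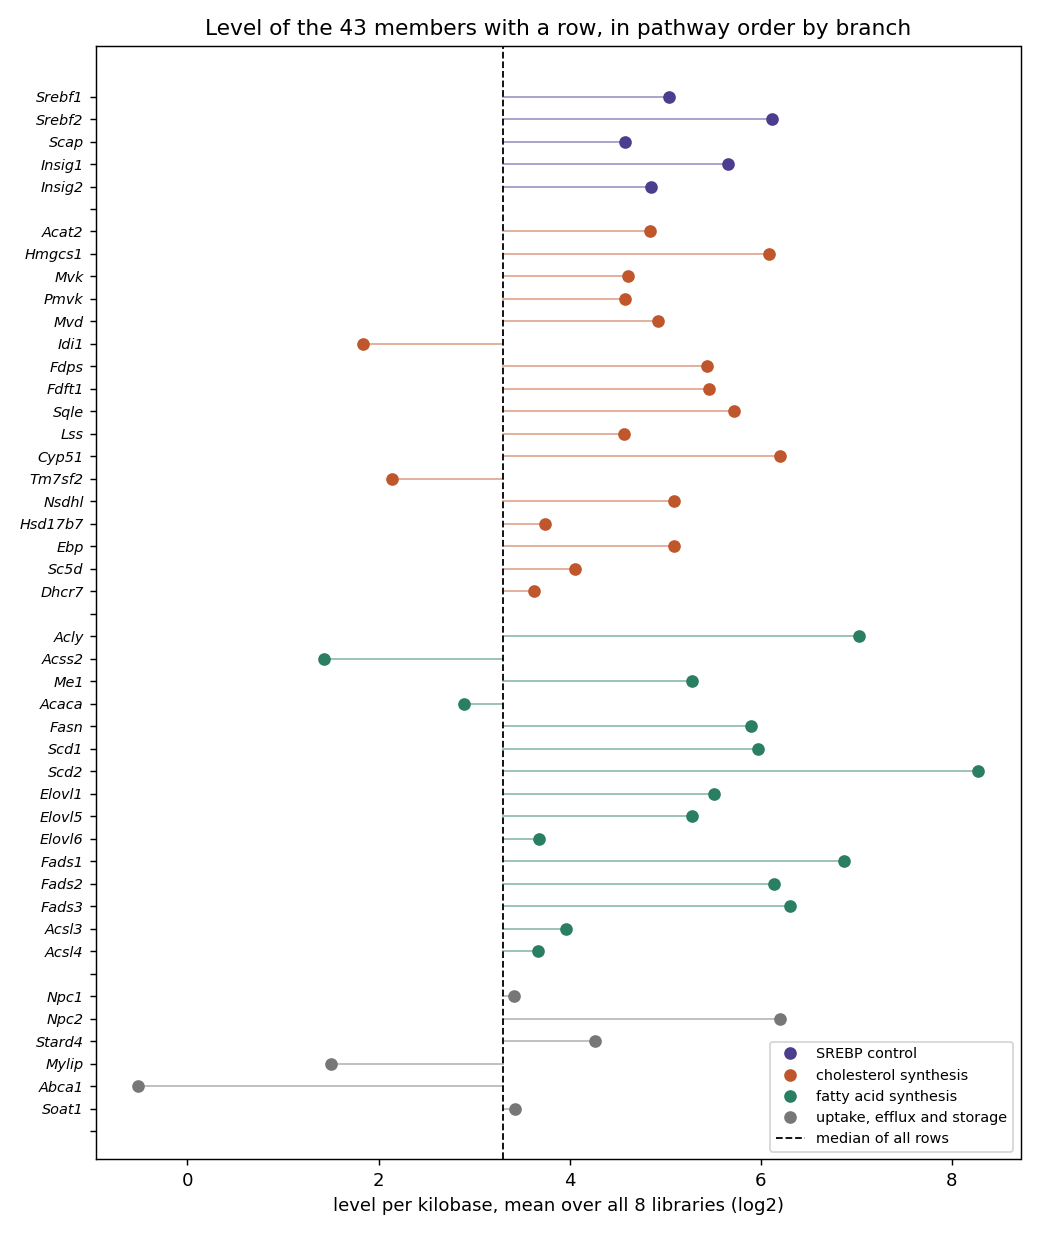
Level per kilobase (log2, horizontal axis) of the 43 members, in pathway order within each branch. It is the authors' mean, read as covering all 8 libraries, less the log2 of transcript length in kilobases. Thin lines join each gene to the median of all rows, 3.30, and 37 of the 43 lie to its right, with Scd2 farthest at 8.28 and Abca1 farthest to the left at -0.51.

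In cholesterol synthesis, of the 17 genes with a row, 15 lay above the median of all rows and 10 above percentile 75. In the mevalonate part, Acat2, which joins acetyl-CoA units, had a level per kilobase of 4.85. Hmgcs1, the cytosolic HMG-CoA synthase, was the highest gene of this part with 6.09 (level 7.88; chromosome 13, 119690379 to 119708260). The kinases and the decarboxylase that follow were close together, with levels per kilobase of 4.61 for Mvk, 4.58 for Pmvk and 4.93 for Mvd. Idi1, the isomerase that makes the reactive isoprenoid unit, stood apart at 1.83, or percentile 24.8, the lowest of the branch with this length. In its longest transcript 27.6% of the windows of 100 bases, the number of sequencing cycles, also occur in transcripts of other genes, mostly of the processed pseudogene Gm13502, and only uniquely mapped reads had been counted. Its level is uncertain for this reason, and over unshared windows it was 1.12-fold that of Tm7sf2, which was then the lower of the pair. Fdps, which makes farnesyl diphosphate, had a level per kilobase of 5.43.

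From squalene onward the levels differed from gene to gene with no steady order along the pathway. Fdft1, the squalene synthase and the first enzyme committed to sterols, had a level per kilobase of 5.45, although 21.5% of its windows are shared, mostly with Ctsb. Sqle, the squalene epoxidase and a rate-controlling step, had 5.73 and Lss, which closes the sterol rings, 4.57. Cyp51, the lanosterol demethylase, was the highest of the 17 with 6.20 (level 8.17, chromosome 5, 4081145 to 4104746). Over unshared windows Hmgcs1 was slightly higher than Cyp51, at 6.25 beside 6.22. Msmo1, the C4-methyl sterol oxidase listed as Sc4mol, had a level of 7.78 and a level per kilobase of 6.21, about the same as Cyp51. Counting it made 18 genes with a median of 4.89 in place of 4.85. The enzymes that act with it in C4 demethylation were lower, with 5.10 for Nsdhl and 3.75 for Hsd17b7. Ebp, the sterol isomerase, had 5.10 and Sc5d, the desaturase, 4.06. Dhcr7, which acts in the last steps, had 3.63. Tm7sf2, one of the enzymes with sterol C14 reductase activity, had 2.14, at percentile 29.0, so that it and Idi1 were the branch members below the median of all rows. They were also the lowest of the 17 when the coding length was used, with levels per kilobase of 3.44 for Tm7sf2 and 3.67 for Idi1.

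Fatty acid synthesis held the highest member of all and also 1 of the 4 below percentile 25. Acly, which cleaves citrate to give cytosolic acetyl-CoA, had a level of 9.17 and a level per kilobase of 7.03 (chromosome 11, 100476353 to 100528000). Acss2, which makes acetyl-CoA from acetate instead, had a level of 3.29 and a level per kilobase of 1.43, at percentile 20.2. The ratio of Acly to Acss2 was 48.2, and 38.3 to 64.4 with the other lengths. Me1, the cytosolic malic enzyme that supplies NADPH, had a level per kilobase of 5.28, which is 1.96-fold that of its mitochondrial paralog Me2 and 42.1-fold that of Me3. In Me1, 17.2% of windows are shared with other genes.

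Fasn, the fatty acid synthase, had a level of 9.23, at percentile 98.6 of all rows (chromosome 11, 120805846 to 120824547). With its long transcript it had a level per kilobase of 5.90, at percentile 90.8. Acaca, the acetyl-CoA carboxylase that makes its substrate, had 2.89 per kilobase, so that Fasn was 8.06-fold higher, but 4.61-fold over unshared windows. Of the Acaca windows 42.8% also occur in the processed pseudogene Gm5182, the highest share of all members, and over its unshared windows its level per kilobase was 3.70. Its paralog Acacb, tied to the control of fatty acid oxidation, had -2.11, which is 32.0-fold lower than Acaca with this length and 218-fold lower with the median transcript length; unshared windows were not counted for Acacb.

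All 5 fatty acid desaturase genes lay at percentile 91.2 or above per kilobase. Scd2, a stearoyl-CoA desaturase that makes monounsaturated fatty acids, had a level of 10.7, at percentile 99.7 of all rows, and a level per kilobase of 8.28. Scd1 had a level per kilobase of 5.97, so that Scd2 was 4.95-fold higher; the ratio was 5.54 with the coding length and 1.10 with the median transcript length. Both lie in a stretch of chromosome 19 between 44293674 and 44407879. Other genes shared 2.66% of the Scd1 windows, mostly Scd3, and 0.90% of those of Scd2. Scd3 and Scd4 had no row. The Fads desaturase genes form a second cluster on chromosome 19, between 10041569 and 10196877. Fads1, the delta-5 desaturase, led it with a level per kilobase of 6.88. Fads2, the delta-6 desaturase, had 6.14 and Fads3 6.31.

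Of the elongases, Elovl1, which acts on very long saturated chains, had a level per kilobase of 5.51. Elovl5, which acts on polyunsaturated chains, had 5.28, and the order of these genes turned with the coding length, at 0.814-fold for Elovl1 over Elovl5, and with the median transcript length, at 0.442-fold. Elovl6, which extends palmitate, had 3.68, so that Elovl1 was 3.54-fold higher. That ratio was 2.155 with the median transcript length and only 1.03 with the coding length. Among their paralogs Elovl7 had 1.16 and Elovl4 had -1.21, and Elovl2 and Elovl3 had no row. Of 6 partners in the elongation cycle, Tecr had 7.22 and Hsd17b12 had 6.38. The dehydratases of the Hacd family stood under older symbols and ranged from 2.12 for Hacd2 to 4.51 for Hacd3. The acyl-CoA synthetases Acsl3 and Acsl4 had levels per kilobase of 3.97 and 3.66, and Acsl4 turned above Acsl3 with the coding length, at 1.10-fold, but not with the median transcript length, at 0.162-fold. Acsl5, which is not a member, had 5.81, or 4.42-fold that of Acsl4, and 36.1-fold with the median transcript length. The glycerolipid genes, for which fatty acids are substrates, had rows for 8 of 8 genes with a median level per kilobase of 2.93, from Agpat1 at 5.16 to Lpin3 at -0.05. Of the final enzymes of triglyceride synthesis, Dgat1 had 3.45 and Dgat2 had 0.23.

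Uptake, efflux and storage spanned the median of all rows, and 1 of its 6 genes with a row lay above percentile 75. The list held no lipoprotein receptor gene, so the branch value does not measure the entry of cholesterol into the cell. Npc2, the soluble cholesterol carrier of the lysosome, had a level of 7.92 and a level per kilobase of 6.20. Its membrane partner Npc1 had a level per kilobase of 3.42, so that Npc2 was 6.87-fold higher, and 3.44-fold to 33.7-fold with the other lengths. Stard4, which carries cholesterol through the cytosol, had 4.27. Soat1, which esterifies cholesterol for storage, had 3.43, and its paralog Soat2, known from liver and intestine, had 0.37.

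Abca1 and Mylip, both known as targets of the liver X receptors, lay at the lower end of the branch, although such targets among the other branches, Srebf1, Scd1 and Fasn, lay above percentile 75. Abca1, the pump that loads cholesterol onto apolipoprotein A-I, had a level of 2.85, and its level per kilobase of -0.51 was at percentile 5.64, the lowest of all members (chromosome 4, 53030787 to 53159895). Mylip, the ubiquitin ligase that removes lipoprotein receptors, had a level of 3.12 and stood at percentile 21.1 per kilobase. Abcg1, another gene of cholesterol export, had no row. The ABC transporter genes of the paralog list that had a row were higher than Abca1, with levels per kilobase of 4.69 for Abcg2, 3.57 for Abca3 and 2.61 for Abca2.

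Shared sequence touched few of these values. Of the 43 members, 31 shared under 1% of their windows with other genes, and 6 shared over 10%: Acaca, Acat2, Idi1, Fdft1, Me1 and Hmgcs1. Acat2 shared 35.3%, with Acat3. Over unshared windows the branch medians stood 2.25 above all rows for fatty acid synthesis and 1.62 for cholesterol synthesis, less than 0.1 above the main values. Only the members were corrected in this way, and the median of all rows was left uncorrected. A branch could therefore not fall in this setting, and its direction carries no information. Part of the sharing is with genes on the opposite strand, as for Hmgcs1 with Gm48342, and whether the reads were counted by strand is not given in the sources used here.

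**Figure D4:**
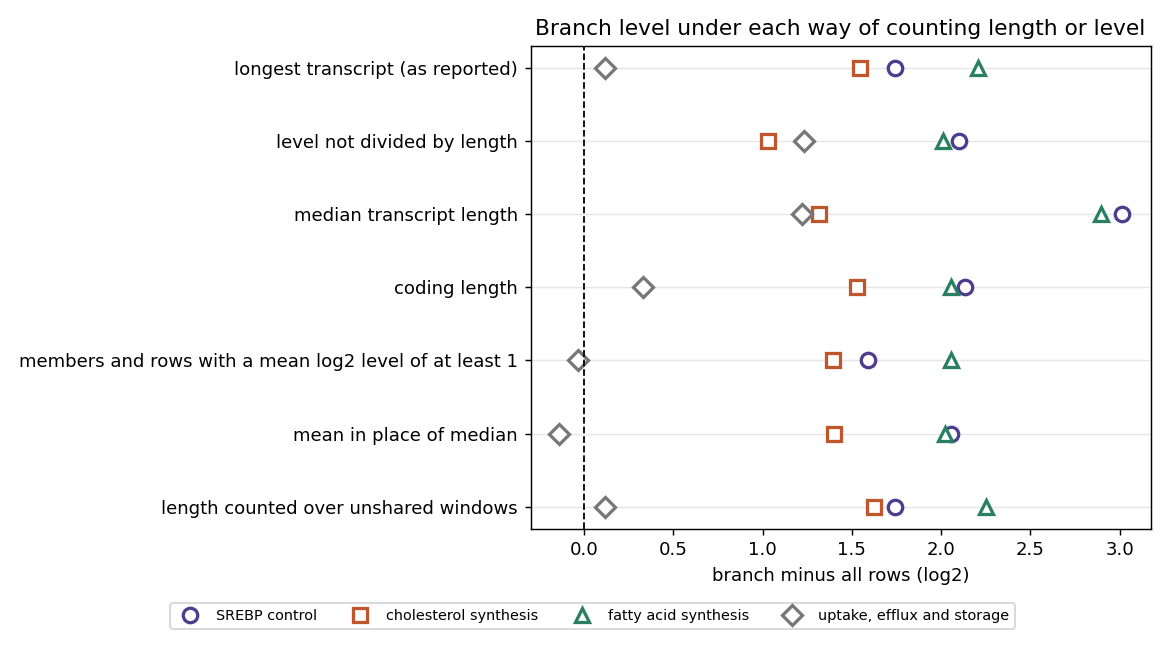
Difference between the branch value and that of all rows (log2, horizontal axis) under each way of counting length or summarising level (vertical axis), with 1 marker per branch. SREBP control, fatty acid synthesis and cholesterol synthesis stay at least 1.03 above all rows in every setting shown. Uptake, efflux and storage ranges from -0.14 to 1.23. For unshared windows only the members were corrected, not all rows.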

How the data were processed

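RNA-seq of mSSC-YFP stromal cells was analysed from 1 table. The labels describe an array amplification kit, whereas the paper's methods give stranded mRNA libraries. Per the paper's methods and the submitters' processing notes, the authors checked reads with FastQC, aligned them to mm10 with STAR 2.3.0e, counted uniquely mapped reads on Ensembl genes and scaled the counts by trimmed means of M-values. The deposited mean log2 expression names no sample or group. It was read as pooling all 8 samples, 4 with DMSO and 4 with BMS493, and was used here as the authors' mean. Its powers of 2 sum to 989369, near the total that CPM values have. Whether a count was added before the log, and which low genes were left out, is not given in the sources used here. The table also holds the authors' fold changes, t statistics and p-values for BMS493 over DMSO. These columns were not used, so the comparison of treatments was not made, and the planned test, which needs single samples, was not run. The paper's methods state an average depth, but depth per sample is not given in the sources used here.

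Decimal commas were converted. Of 12589 rows, 93.5% were matched by symbol to a transcript length in GENCODE M21 (GRCm38), and 19 rows carry symbols that a spreadsheet turned into dates. Windows of 100 bases were searched in all GENCODE transcripts on both strands. Python 3.11.15, numpy 2.4.6, pandas 2.3.3 and matplotlib 3.10.9 were used, and the level script was tested on simulated data. Members, branches and lists were chosen with earlier results of these data known. The promoters shown, some ratios between genes and the count of shared windows were chosen after values were seen. The table uses some older symbols, found through RefSeq synonyms. Every member is named, and other genes come from the companion and marker lists or, chosen after values were seen, share windows with a member. Protein sequences were not used here, so the planned identity between paralogs was not computed.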

Additional observations from a re-analysis of the deposited data

How the results depend on the processing

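No paired analysis was possible because single-sample values are needed for it, and the only column used is a mean, read as pooled over all samples. The authors' own fold changes and p-values were left unused by choice. The comparison of BMS493 with DMSO, the replicate block and leaving out single replicates were therefore not run, and no spread is known. A branch value was taken as moved when it changed by over 1.5-fold. Without division by length, uptake, efflux and storage moved from 0.12 to 1.23 above all rows and ranked above cholesterol synthesis. With the median transcript length, which counts many short annotated fragments, it moved to 1.22, SREBP control to 3.01 and fatty acid synthesis to 2.90. Cholesterol synthesis stayed between 1.03 and 1.62 in every setting run, and was 1.58 with Msmo1 counted under its older symbol. Uptake, efflux and storage went from slightly above to slightly below all rows, to -0.03 among rows with a level of at least 1 and to -0.14 with means in place of medians, neither a move of 1.5-fold. Fatty acid synthesis came first in 3 of the 7 settings and SREBP control in the other 4. Members above percentile 75 numbered 24 to 26. Among the motifs, 2 members in place of 1 held the SRE-like motif when its last base was dropped, and with only the bases before the start 27 in place of 28 held the CCAAT box. The shorter motif, the unshared windows and the older symbols were chosen after seeing the data. The setting with unshared windows corrected the members only, so a branch could not fall in it. What the depth of single libraries limits could not be assessed.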
